A study of Mus musculus with 9 samples.

Results

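Cyclic GMP (cGMP) signalling was followed through 10 genes of mouse cardiac fibroblasts. They encode the subunits of soluble guanylate cyclase (Gucy1a1, Gucy1a2, Gucy1b1), the natriuretic peptide receptors (Npr1, Npr2, Npr3), the cGMP-dependent protein kinases (Prkg1, Prkg2) and phosphodiesterases that degrade cGMP (Pde5a, Pde1a). The genes were taken by symbol and were chosen by their expression in these same libraries, so their levels and fold changes are given as a description without p-values. All 10 were found among the 38924 genes of the count table, and all 10 passed the filter on low counts in each comparison.

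The cells were primary cardiac fibroblasts of adult male mice, 8 to 10 weeks old, that carry Cas9 and EGFP at the ROSA locus on a C57BL/6 background. They were cultured for 3 days, sorted as CD90+ CD45- CD31-, replated for 6 days until 80 to 90% confluent, and transfected with guide RNAs by lipid. Control cells received scrambled guides, Gata4 KD cells 2 guides against Gata4 and Tbx20 KD cells 2 guides against Tbx20, so every group carried Cas9 and had been transfected. Each group had 3 libraries, a, b and c, which the study's methods call biological replicates. The labels do not say whether they came from separate animals, so how much of the spread between libraries is technical is not known.

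Soluble guanylate cyclase is a heterodimer of an alpha and a heme-binding beta subunit that makes cGMP when nitric oxide binds the heme. Natriuretic peptides reach the same second messenger through membrane receptors that carry their own cyclase domain. cGMP then acts on kinases, ion channels and phosphodiesterases, and phosphodiesterases end the signal. In the heart the pathway is known for relaxing vascular smooth muscle and for restraining fibroblast activation.

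Total counts ranged from 31214828 to 41950397 per library. Gata4 was at 156 to 166 CPM (counts scaled to library size, over all 9 libraries) in control and 47.2 to 65.2 CPM in Gata4 KD. In Tbx20 KD it was at 178 to 199 CPM, above every control. Tbx20 was at 714 to 1288 CPM in control, 321 to 429 CPM in Tbx20 KD and 518 to 904 CPM in Gata4 KD, the last overlapping control. Each target was thus lower in every library that received its guides, although a transcript level does not show how much protein was lost. Against control, Gata4 was called in Gata4 KD at an edgeR adjusted p under 0.05. Tbx20 was not called in Tbx20 KD (log2 fold change -1.35, SE 0.21). Of 8 fibroblast markers, 8 had a mean of at least 1 CPM, and their summed level was 8549 to 9767 CPM in control, 6577 to 9080 CPM in Gata4 KD and 8257 to 10118 CPM in Tbx20 KD. Col1a1 and Col1a2 made up most of that sum, so it says little of the others. Tcf21 averaged 182, 119 and 223 CPM and Pdgfra 449, 580 and 451 CPM in the same order, and no fibroblast marker was called. The cardiomyocyte markers stayed under 1 CPM on average in 6 of 6 cases, with Myh6, Actc1, Myl2 and Myl7 under 10 counts in every library. Pericyte and smooth muscle markers, of which 7 of 10 reached 1 CPM, summed to 355 to 406 CPM in control, 369 to 587 CPM in Gata4 KD and 342 to 428 CPM in Tbx20 KD, while Kcnj8 and Higd1b were under 10 counts in every library. Most of that sum was Pdgfrb, with means of 296, 378 and 310 CPM in the same order. Rgs5 averaged 2.63, 5.01 and 3.04 CPM and Notch3 24.4, 17.5 and 27.8 CPM, and no marker of this list was called. Epicardial markers, 4 of 6 at 1 CPM or more, summed to 25.7 to 48.8 CPM, 9.39 to 17.3 CPM and 27.1 to 44.1 CPM in the same order of groups. That sum followed the mesothelial gene Lrrn4, at 24.7 ± 8.26 CPM in control, 2.38 ± 0.313 CPM in Gata4 KD and 25.4 ± 6.12 CPM in Tbx20 KD (SD, n = 3 each), which was called lower in Gata4 KD against both other groups (edgeR adjusted p = 0.00272 and 9.6e-04), while Krt19 averaged 6.67, 8.56 and 3.77 CPM. Endothelial markers, 5 of 6 at 1 CPM or more, summed to 34.8 to 56.0 CPM, 36.9 to 54.5 CPM and 40.9 to 52.5 CPM, and one of them, the receptor gene Kdr, was called higher in Gata4 KD than in Tbx20 KD (5.57 ± 0.621 and 2.98 ± 0.277 CPM, SD, n = 3 each, edgeR adjusted p = 0.0258). The other endothelial markers were not called and went both ways. Their log2 fold changes were 0.36 for Pecam1, 0.19 for Emcn, -0.48 for Tek, -0.20 for Cdh5 and -0.58 for Tie1. Leukocyte markers, 6 of 6 at 1 CPM or more, summed to 37.8 to 44.6 CPM, 24.7 to 40.6 CPM and 37.1 to 52.3 CPM, and the 6 myofibroblast markers to 2632 to 2897 CPM, 2334 to 3051 CPM and 2536 to 2827 CPM, with none called in either list. Within the lists, genes went both ways. Acta2 averaged 1070, 1161 and 996 CPM, Postn 1033, 809 and 1006 CPM, Tagln 416, 509 and 375 CPM and Cnn1 7.65, 12.2 and 6.56 CPM. Csf1r averaged 9.98, 6.43 and 8.51 CPM and Cd14 2.38, 3.07 and 2.64 CPM. Across the genes kept at a mean of 1 CPM or more, the main component of variation within groups had control b and control c at its opposite ends. Gata4 KD c and Tbx20 KD b were on the side of control b, so values without single libraries are given for some genes. Signs that turned in an alternative run are listed at the end. The part of the marker differences in the results on cGMP genes was not tested.

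Gucy1b1 and Gucy1a1 are neighbours. In GRCm38, Gucy1b1 spans bases 82032006 to 82074689 of chromosome 3, minus strand, and Gucy1a1 lies on that strand from 82092427 to 82145789, with 17737 bases between them. Gucy1a2 spans bases 3532778 to 3894736 of chromosome 9, plus strand. The 250 bases before the RefSeq start of the 2 subunit genes that differed between the knockdowns are shown because the perturbed proteins bind DNA. They were searched on both strands for a GATA hexamer (AGATAA in its first form, AGATAG in another, TGATAA in a further one and TGATAG in the last) and for the T-box core AGGTGT, which do not overlap each other, and matches are in capitals. The Gucy1b1 window is on the minus strand at chr3:82074712-82074961 and the Gucy1a2 window on the plus strand at chr9:3532099-3532348, both in GRCm38.p6.
Gucy1b1: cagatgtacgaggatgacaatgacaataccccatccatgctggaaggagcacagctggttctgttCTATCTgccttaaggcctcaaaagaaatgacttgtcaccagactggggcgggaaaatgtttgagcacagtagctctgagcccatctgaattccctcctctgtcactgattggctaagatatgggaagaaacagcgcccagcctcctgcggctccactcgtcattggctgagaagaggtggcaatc
Gucy1a2: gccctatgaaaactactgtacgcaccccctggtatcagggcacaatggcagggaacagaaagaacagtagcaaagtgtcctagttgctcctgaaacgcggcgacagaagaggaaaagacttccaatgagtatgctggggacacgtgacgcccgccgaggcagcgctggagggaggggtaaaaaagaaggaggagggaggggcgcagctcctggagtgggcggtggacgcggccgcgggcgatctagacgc

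The Gucy1b1 window held AGATAG on the opposite strand, its first base at position -185 counted from the start, and the Gucy1a2 window held neither motif. RefSeq gives Gucy1a1 a pair of starts. The stretch around the match at each is shown, at chr3:82145700-82145725 with the T-box core on the opposite strand at -65, and at chr3:82145242-82145267 with TGATAG at -184.
Gucy1a1, first start: cggagcaaagACACCTttggcccgat
Gucy1a1, second start: actaagtaagTGATAGcggtgccctc

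RefSeq windows were matched for 9 of the 10 genes, 14 windows in all. A GATA hexamer was in 4 of the 14 windows (Gucy1a1, Gucy1b1, Prkg1, Pde1a), against 26.5% of all 32851 windows of the same length. The T-box core was in 3 of 14 (Gucy1a1, Npr2, Pde1a), against 11.8% of all windows. A match is only a match of letters, and the absence of one says nothing of the factor.

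Because longer transcripts give more reads, levels were compared between genes only as CPM per kb of exon. Over the 9 libraries the mean level per kb was highest for Gucy1b1 (44.9), followed by Npr2 (17.4), Pde1a (13.6), Npr3 (6.03), Gucy1a2 (3.04), Gucy1a1 (2.86), Prkg2 (2.36), Prkg1 (2.29), Pde5a (1.69) and Npr1 (0.146). Within each of the 9 libraries, Gucy1b1 was above Npr2, Pde1a above Npr3, Npr3 above Gucy1a2, Prkg1 above Pde5a and Pde5a above Npr1, while Npr2 was above Pde1a in 7 of 9. The order among Gucy1a2, Gucy1a1, Prkg2 and Prkg1 changed from library to library, and with the mean transcript length in place of exon bases Prkg1 moved ahead of the other 3. The ranges over all libraries overlapped between neighbours except for Gucy1b1 against Npr2 and Pde5a against Npr1. In control cells alone the kinase Prkg1 came at place 5, at 2.34 per kb, ahead of both alpha subunits at 2.23 and 2.12 per kb, and all 3 overlapped. Npr1 rested on 15 to 37 counts per library.

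**Figure D1:**
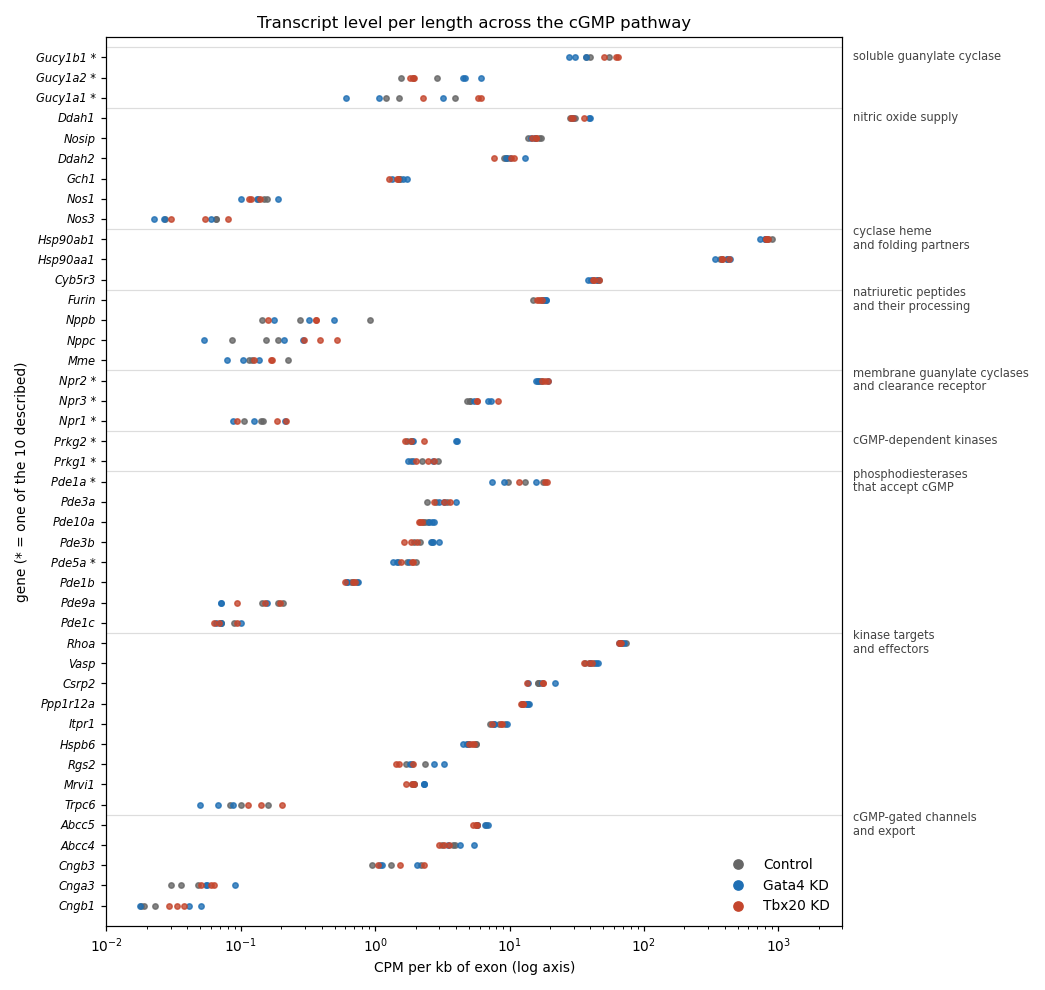
CPM per kb of exon (log axis) for each gene of the cGMP pathway list with 10 counts or more in some library, grouped by role; each point is a library, coloured by group, and asterisks mark the 10 genes described. Gucy1b1, at a mean of 44.9 per kb, stands above both alpha subunits in every library, and Npr2 and Npr3 stand above Npr1.

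Levels of the soluble guanylate cyclase subunits differed between the groups. Gucy1a2 was highest in Gata4 KD and Gucy1b1 and Gucy1a1 had their highest means in Tbx20 KD. RNA came from whole cultures, so fewer cells expressing a gene and less RNA per cell cannot be told apart.

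Gucy1a2, which encodes the alternative alpha subunit, was at 12.8, 19.3 and 10.3 CPM in control libraries a, b and c, at 31.2, 40.5 and 30.03 CPM in Gata4 KD and at 12.8, 12.1 and 12.9 CPM in Tbx20 KD. The 3 Gata4 KD libraries were above all 6 others, and the Tbx20 KD libraries lay within the range of the controls. The log2 fold change was 1.26 (SE 0.22) in Gata4 KD against control, -0.16 (SE 0.20) in Tbx20 KD against control and 1.43 (SE 0.12) in Gata4 KD against Tbx20 KD. With any single library left out the direct difference stayed between 1.29 and 1.503. The difference from control then ranged from 1.08 (without control c) to 1.54 (without control b).

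Gucy1b1, the beta subunit shared by both heterodimers, was at 155, 217 and 145 CPM in control, at 121, 109 and 145 CPM in Gata4 KD and at 199, 250.1 and 245 CPM in Tbx20 KD. All Tbx20 KD libraries were above all Gata4 KD libraries, and the controls lay between and across them, with control b above Tbx20 KD a. The log2 fold change was -0.47 (SE 0.16) in Gata4 KD against control, 0.43 (SE 0.16) in Tbx20 KD against control and -0.89 (SE 0.13) between the knockdowns. With any single library left out the last ranged from -1.02 to -0.79.

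Gucy1a1, the other alpha subunit and the neighbour of Gucy1b1, was at 10.5, 27.6 and 8.40 CPM in control, at 7.46, 4.196 and 22.1 CPM in Gata4 KD and at 15.9, 40.6 and 42.7 CPM in Tbx20 KD. One library in each of control and Gata4 KD stood well above the other two, and Tbx20 KD a stood below its own group, so that the groups overlapped in all 3 comparisons. The log2 fold change was -0.45 (SE 0.62), 1.10 (SE 0.49) and, between the knockdowns, -1.54 (SE 0.61). These values depended on single libraries. In Gata4 KD against control the sign turned without control b (0.24) and the value was -1.398 without Gata4 KD c. In Tbx20 KD against control it ranged from 0.81 (without control c) to 1.80 (without control b). Between the knockdowns it ranged from -2.52 (without Gata4 KD c) to -1.14 (without Gata4 KD b).

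**Figure D2:**
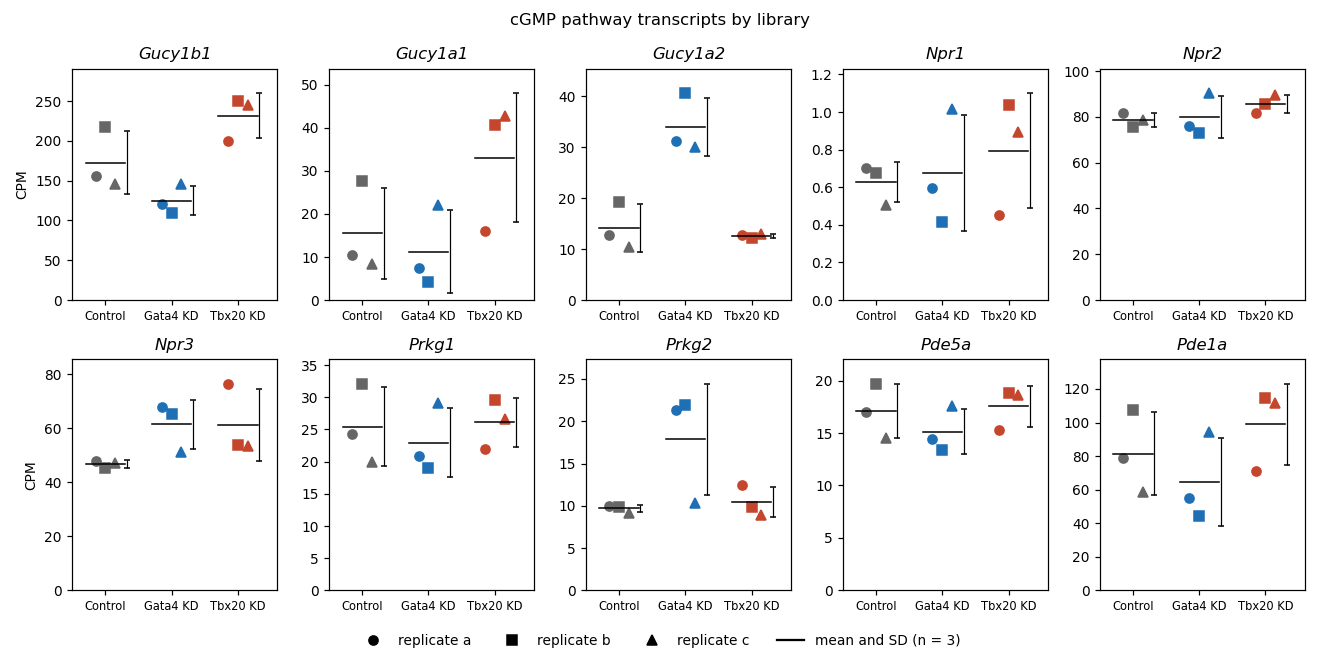
CPM (linear axes from 0) of each of the 10 genes in the 9 libraries by group; marker shape gives the replicate letter, horizontal lines the group mean and bars the SD (n = 3). Gucy1a2 is at 30.03 to 40.5 CPM in Gata4 KD and at most 19.3 CPM elsewhere, while Gucy1a1 spreads widely within every group.

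The 3 genes together gave the makeup of the cyclase transcripts per kb of exon. Gucy1a2 formed 51.5% ± 7.98 (SD, n = 3) of the alpha subunit transcripts in control, 77.0% ± 16.6 (SD, n = 3) in Gata4 KD and 31.2% ± 12.6 (SD, n = 3) in Tbx20 KD. By library these shares were 55.9, 42.3 and 56.3% in control, 81.4, 91.0 and 58.7% in Gata4 KD and 45.7, 23.8 and 24.0% in Tbx20 KD. Each Gata4 KD library was above every control, and Tbx20 KD overlapped control through library a. The alpha subunits summed to 4.35 ± 2.198 (SD, n = 3) in control, 6.72 ± 0.967 (SD, n = 3) in Gata4 KD and 6.64 ± 2.12 (SD, n = 3) CPM per kb in Tbx20 KD, with overlapping libraries.

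Transcripts of Gucy1b1 exceeded those of both alpha subunits together in all 9 libraries. The ratio was 11.0 ± 2.70 (SD, n = 3) in control, 4.76 ± 0.597 (SD, n = 3) in Gata4 KD and 9.38 ± 2.35 (SD, n = 3) in Tbx20 KD. Each Gata4 KD library (4.15 to 5.34) was below the 8.07 to 13.4 of control and the 7.75 to 12.1 of Tbx20 KD. These shares and ratios are arithmetic on the levels above and depend on the exon length assigned to each gene.

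**Figure D3:**
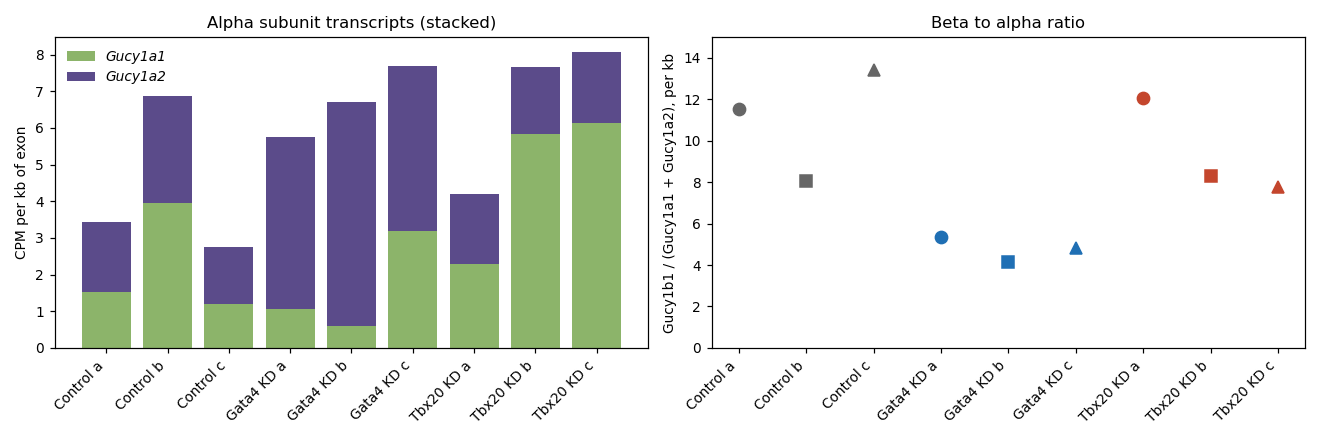
Left, CPM per kb of exon of Gucy1a1 and Gucy1a2 stacked for each library; right, the ratio of Gucy1b1 to the sum of both alpha subunits, per kb, by library. Gucy1a2 forms 58.7 to 91.0% of the alpha transcripts in Gata4 KD, and the ratio there, 4.15 to 5.34, lies below all other libraries.

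Of the natriuretic peptide receptors, Npr3 was higher in every knockdown library than in any control, and Npr2 was at much the same level in all groups. Npr2, the cyclase receptor for C-type natriuretic peptide, was at 81.8, 75.4 and 78.7 CPM in control, at 76.0, 73.1 and 90.3 CPM in Gata4 KD and at 81.8, 85.5 and 89.6 CPM in Tbx20 KD. Its log2 fold changes were 0.02 (SE 0.10) in Gata4 KD and 0.13 (SE 0.07) in Tbx20 KD, the latter with the lowest Tbx20 KD library level with the highest control. Npr3, the clearance receptor that binds natriuretic peptides without a cyclase domain, was at 48.0, 45.2 and 47.4 CPM in control, at 68.0, 65.4 and 51.3 CPM in Gata4 KD and at 76.6, 53.9 and 53.4 CPM in Tbx20 KD. Tbx20 KD a was the highest library, and the other Tbx20 KD libraries lay closer to the controls.

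The log2 fold change of Npr3 was 0.39 (SE 0.11) in Gata4 KD and 0.39 (SE 0.14) in Tbx20 KD, and the latter was 0.20 without Tbx20 KD a. These values share the same controls, and between the knockdowns the log2 fold change was 0.01 (SE 0.16). Npr1, the cyclase receptor for atrial and B-type natriuretic peptides, was at 0.42 to 1.04 CPM across all libraries. Its log2 fold changes were 0.10 (SE 0.37) and 0.32 (SE 0.35), and a change could not be seen at this depth.

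Among the kinases, Prkg2, the membrane-anchored form, was at 10.0, 9.86 and 9.20 CPM in control, at 21.4, 22.0 and 10.3 CPM in Gata4 KD and at 12.5, 9.92 and 8.97 CPM in Tbx20 KD. Gata4 KD a and b were high, and Gata4 KD c was within 1 CPM of control a. The log2 fold change in Gata4 KD against control was 0.88 (SE 0.25), and went from 0.71 without Gata4 KD b to 1.18 without Gata4 KD c. In Tbx20 KD it was 0.11 (SE 0.13). Between the knockdowns it was 0.77 (SE 0.28), and over all alternative runs it went from 0.60 to 1.04, the latter without Gata4 KD c. Prkg1, the form that phosphorylates targets in smooth muscle and platelets, was at 24.3, 32.1 and 20.0 CPM in control, at 20.9, 19.0 and 29.0 CPM in Gata4 KD and at 22.0, 29.6 and 26.6 CPM in Tbx20 KD. Its groups overlapped, with log2 fold changes of -0.15 (SE 0.20) and 0.04 (SE 0.18).

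Of the phosphodiesterases, Pde1a, which calcium and calmodulin activate, was at 78.6, 107 and 58.4 CPM in control, at 55.0, 44.2 and 94.2 CPM in Gata4 KD and at 71.3, 114 and 111 CPM in Tbx20 KD. The groups overlapped in all 3 comparisons. Its log2 fold changes were -0.34 (SE 0.29), 0.29 (SE 0.24) and, between the knockdowns, -0.61 (SE 0.30). Over all alternative runs the last went from -1.003 (without Gata4 KD c) to -0.395. Pde5a, the cGMP-specific enzyme inhibited by sildenafil, ranged from 13.4 to 19.7 CPM over all libraries. Its log2 fold changes were -0.18 (SE 0.15), 0.04 (SE 0.13) and -0.21 (SE 0.13).

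**Figure D4:**
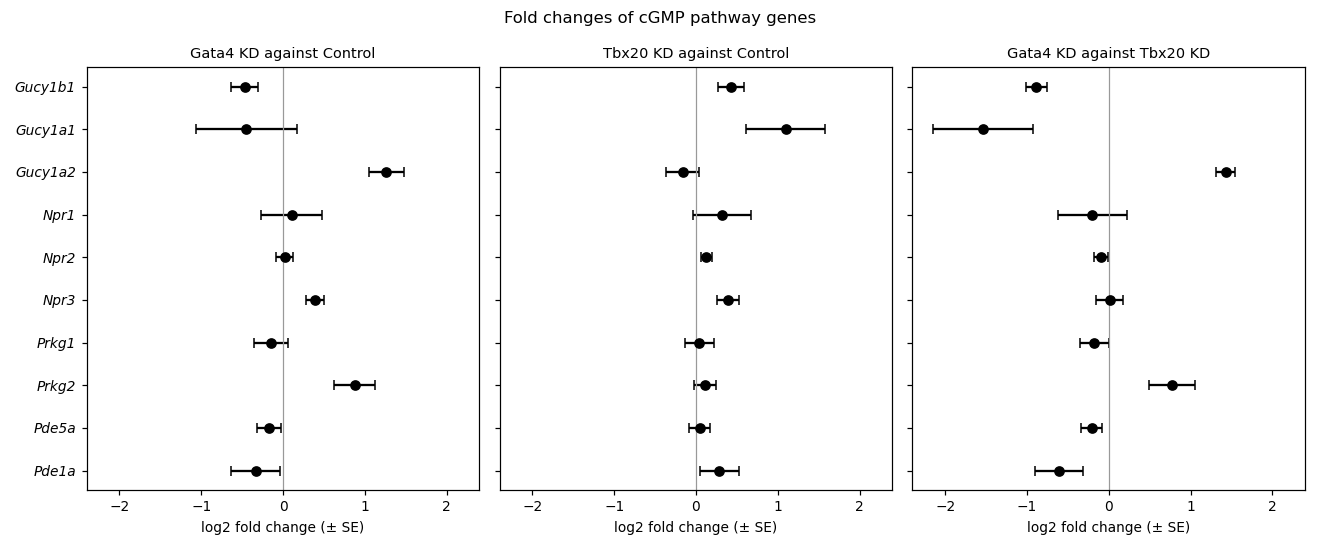
Log2 fold change (points) with its SE (bars) for the 10 genes in each of the 3 comparisons. In Gata4 KD against Tbx20 KD, Gucy1a2 lies at 1.43 and Gucy1b1 at -0.89, and the bars of Gucy1a1 are the widest.

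At an adjusted p under 0.05 over all genes in edgeR, 0 of 10 genes were called in Gata4 KD against control, where 0.38% of all genes were, 0 of 10 in Tbx20 KD against control, where 0.00687% were, and 2 of 10 (Gucy1a2, Gucy1b1) in Gata4 KD against Tbx20 KD, where 1.44% were. In the last, Gucy1b1 was no longer among them without Gata4 KD a (log2 fold change -0.86), Gata4 KD b (-0.79), Tbx20 KD b (-0.83) or Tbx20 KD c (-0.84), and 5 were called without Gata4 KD c. The shares of all genes called in these runs are not given here. At an unadjusted p under 0.05 in edgeR the numbers were 4, 2 and 4 of 10, against 8.54%, 2.69% and 16.7% of all genes tested. On libraries scaled within each comparison, the groups did not overlap for 4 genes (Gucy1a2, Gucy1b1, Npr3, Prkg2), 2 genes (Npr2, Npr3) and 2 genes (Gucy1a2, Gucy1b1), against 13.8%, 6.93% and 23% of all genes tested. The Gucy1b1 case in Gata4 KD rests on a near tie, since scaled over all 9 libraries the lowest control (145.2 CPM) and the highest Gata4 KD library (145.3 CPM) cross. The median log2 fold change of the 10 was -0.07, 0.21 and -0.19, beside -0.02, -0.0022 and -0.0063 for all genes. In Tbx20 KD against control the target Tbx20 itself was not called (log2 fold change -1.35, SE 0.21). A count of 0 there does not show unchanged levels. As the genes were picked on these values, nothing is read from the counts.

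Much of the variation lay within groups and followed particular libraries. The deviations from group means were taken for the genes that passed the filter with a mean of at least 1 CPM. Of their variance, 40.5% lay on one component, with control b at 0.70 and control c at -0.52 at its ends. Gata4 KD c was at 0.24, Tbx20 KD b at 0.23 and Tbx20 KD a at -0.24. Control a was at -0.18, Gata4 KD a at -0.11, Gata4 KD b at -0.14 and Tbx20 KD c at 0.0071. Gucy1a1, Gucy1b1, Prkg1, Pde1a and Pde5a were each highest in control b and lowest in control c, highest in Gata4 KD c and lowest in Gata4 KD b, and lowest in Tbx20 KD a. Tbx20 itself had the same order, with 1001, 1288 and 714 CPM in control, 670, 518 and 904 CPM in Gata4 KD and 321, 427 and 429 CPM in Tbx20 KD. Npr3 and Prkg2 ran the other way in both knockdowns and were lowest in Gata4 KD c.

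The SD of log2 CPM within groups was 0.99 for Gucy1a1, larger than for 99.8% of 4012 genes of like expression. It was 0.47 for Pde1a (larger than 99.4%), 0.38 for Prkg2, 0.30 for Prkg1 and for Gucy1a2, 0.24 for Gucy1b1 and 0.11 for Npr2 (larger than 51.7%), against a median of 0.15 over 14782 genes. Within groups, Gucy1a1 followed Pde1a with r = 0.98, Pde5a with r = 0.96, Prkg1 with r = 0.96 and Gucy1b1 with r = 0.95, while its r with Gucy1a2 was 0.18 and with Npr3 -0.81. These are descriptions over 9 libraries whose deviations share the component above.

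**Figure D5:**
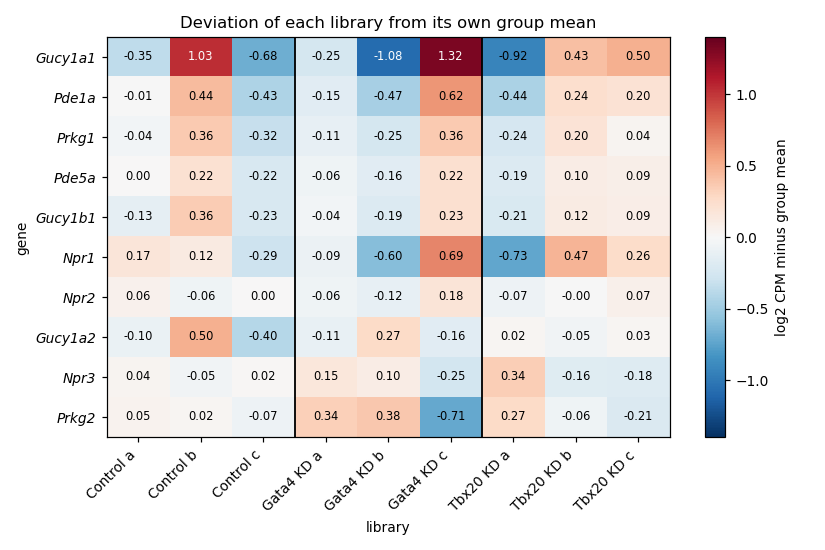
Log2 CPM of each gene (rows) in each library (columns) minus the mean of that library's group, with the value written in each cell and black lines between groups. Gucy1a1, Pde1a, Prkg1, Pde5a and Gucy1b1 are high together in control b and Gata4 KD c and low together in control c, Gata4 KD b and Tbx20 KD a, and Npr3 and Prkg2 are low in Gata4 KD c.

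Among 10033 genes at 5 CPM or more, the 5 with a profile over the 9 libraries most like that of Gucy1b1 were Ccn4 (r = 0.98, rho = 0.97), Lclat1 (0.98, 0.98), Nrep (0.98, 0.95), Cpped1 (0.97, 0.97) and Ptger4 (0.96, 0.98). Without the 2 libraries farthest from the median of Gucy1b1, Tbx20 KD b and c, their r was 0.97, 0.97, 0.96, 0.97 and 0.96. Ccn4, a matrix-associated protein, had means of 310 ± 46.6, 238 ± 25.5 and 434 ± 22.0 CPM (SD, n = 3 each) in control, Gata4 KD and Tbx20 KD. Gucy1a1 was number 59 of the list (r = 0.92, rho = 0.93, r without the same 2 libraries 0.83) and Gucy1a2 number 9240 (r = -0.67). The 9 libraries share groups and the component above.

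The rest of the pathway was read from a list of 53 further genes, of which 52 were in the table. Pde2a, a phosphodiesterase that cGMP stimulates, was not matched by its ID and is not analysed here. Between 28 and 31 of them were tested per comparison. No gene was called in either knockdown against control, with 3 of 28 and 1 of 31 at an unadjusted p under 0.05 in edgeR, and 1 was called, higher, in Gata4 KD against Tbx20 KD, with 9 of 31 at an unadjusted p under 0.05. Of all genes tested, 8.54%, 2.69% and 16.7% had such a p. Their median log2 fold change was 0.04, -0.03 and 0.10 in the 3 comparisons.

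The gene called was Pde3b, a phosphodiesterase of cyclic AMP that cGMP inhibits. It was at 19.7, 24.4 and 17.6 CPM in control, 23.9, 27.3 and 24.4 CPM in Gata4 KD and 16.8, 14.9 and 18.7 CPM in Tbx20 KD. Every Gata4 KD library was above every Tbx20 KD library, and the controls overlapped both. The log2 fold change between the knockdowns was 0.59 (SE 0.095, edgeR adjusted p = 0.0367), and leaving out any library but Gata4 KD c took the adjusted p past 0.05. Against control it was 0.29 (SE 0.12) in Gata4 KD and -0.29 (SE 0.14) in Tbx20 KD. Pde10a, which hydrolyses both cyclic nucleotides, was at 32.6 to 35.0 CPM in Gata4 KD, 29.3 to 31.6 CPM in control and 27.3 to 28.9 CPM in Tbx20 KD, without overlap, and its direct log2 fold change of 0.28 (SE 0.054) had an edgeR adjusted p of 0.0579.

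By role, Ddah1, Nosip and Ddah2 had the highest levels per kb among the genes listed under nitric oxide supply. That heading groups the list and is not a measure of nitric oxide. The nitric oxide synthases Nos1 and Nos3 were at 1.11 to 2.09 and 0.0940 to 0.332 CPM, and Nos2 was under 10 counts in every library. The natriuretic peptide genes Nppb and Nppc were at most 0.717 and 0.546 CPM, Nppa and the processing enzyme gene Corin were under 10 counts, and the protease Furin was the highest of that group. Of the other receptor cyclases, Gucy2c, Gucy2d, Gucy2e, Gucy2f and Gucy2g were under 10 counts, as was the beta subunit gene Gucy1b2. The kinase targets led with Rhoa, Vasp and Csrp2, while Kcnma1 and Pln were under 10 counts, and export was led by the transporters Abcc5 and Abcc4. Mrvi1, a substrate of the kinase encoded by Prkg1, was at 15.8 CPM in each of the 3 Gata4 KD libraries, 12.9 to 13.3 CPM in control and 11.6 to 13.2 CPM in Tbx20 KD, with a log2 fold change between the knockdowns of 0.33 (SE 0.074, edgeR adjusted p = 0.0829). Lower in Gata4 KD than in Tbx20 KD without overlap were Trpc6 (-1.15, SE 0.33) and Nppc (-1.11, SE 0.51). Both were at low levels, Trpc6 at most 1.02 CPM, and neither was called. Between the knockdowns 8 of the 31 other pathway genes tested did not overlap, against 23% of all genes.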

How the data were processed

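The authors trimmed reads by quality and used RSEM with Bowtie2 on GRCm38 with strand-specific counting; the submitters' processing notes name mm9, and which build underlies the table is not settled here. The deposited table holds expected counts per gene, as whole numbers and not normalized. Its rows were named with GENCODE M21 (GRCm38), which gave 37607 of 38924 IDs (96.6%) a symbol. RSEM shares out ambiguous reads, but at most 0.214% of the 75-base windows of any of the 10 genes occurred in another gene.

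Each comparison was fitted on its 6 libraries in R 4.3.3 with edgeR 4.0.16: filterByExpr, TMM, quasi-likelihood F test, Benjamini-Hochberg adjustment at 0.05, no covariate. SE is the absolute log2 fold change over the root of F. CPM was scaled over all 9 libraries, and length is merged exon bases. Named were the 10 genes, pathway genes called, those of the highest level per role, and the 5 profiles most like Gucy1b1. Picked out after their values were seen were Pde10a, Mrvi1, Trpc6 and the low natriuretic and nitric oxide synthase genes. So were the markers Lrrn4, Krt19, Kdr, Pdgfrb, Rgs5, Notch3, Col1a1, Col1a2, Tcf21, Pdgfra, Acta2, Postn, Tagln, Cnn1, Csf1r and Cd14. The members and lists were chosen with earlier results of these data known. Alternatives were DESeq2 1.42.0, an exact test, limma-voom 3.58.1, other filters and scaling, a joint fit of 9 libraries, a block for the replicate letter, and leaving out each library. Depth per library was 31214828 to 41950397 counts. Chi-square per degree of freedom between replicate libraries was 5.90 to 60.4, above the value of 1 that sampling noise alone gives, so no pair was merged as the same library deposited again. It does not show that they came from separate cultures.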

Additional observations from a re-analysis of the deposited data

Results flagged for a closer look

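The effects of the 2 knockdowns were set against each other by comparing them directly, since both share the controls. The difference (Gata4 KD minus Tbx20 KD, log2) was 1.43 for Gucy1a2 and -0.89 for Gucy1b1 in genes chosen on these levels, given as a description, and 0.59 for Pde3b (edgeR adjusted p = 0.0367). Pde10a had every Gata4 KD library above and every Tbx20 KD library below all controls, with a difference of 0.28 that did not pass (edgeR adjusted p = 0.0579). Groups did not overlap for 13.8% of all genes in Gata4 KD against control, 6.93% in Tbx20 KD against control and 23% between the knockdowns. The share of all genes in the order of Pde10a was not computed, so the order is not read as unusual. For Pde3b the adjusted p was 0.0236 without Gata4 KD c and above 0.05 without any one of the other 5 libraries.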

How the results depend on the processing

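Of the 10 genes, those called in Gata4 KD against control numbered 0, but 2 with DESeq2 (Gucy1a2, Prkg2), 1 with the exact test, 1 without a filter on low counts and 1 with all 9 libraries in one fit (Gucy1a2 in each), and 0 to 1 with a library left out. In Gata4 KD against Tbx20 KD they numbered 2, and 1 to 5 with a library left out, 5 of them (Gucy1a1, Gucy1a2, Gucy1b1, Prkg2, Pde1a) without Gata4 KD c. In Tbx20 KD against control the count was 0 in every alternative run. Of the other pathway genes, 1 was called in the direct comparison, 4 with DESeq2, 3 with the exact test, 0 with all 9 libraries in one fit and 0 to 3 with a library left out. With the replicate letter as a block the direct comparison called 2 of the 10 genes and 0 other pathway genes. The share of all genes called in each alternative run is not given here. A higher or lower count in such a run is therefore not read as a result about these genes. Whether letters pair the libraries is not settled. Deviations of the same letter correlated from -0.175 to 0.444 and those of different letters from -0.497 to 0.454. A library matched its own letter best in 7 of 18 cases, so the block is only another fit. With mean transcript length in place of exon length, the ratio of Gucy1b1 to alpha transcripts was 8.85 in control, 3.93 in Gata4 KD and 7.41 in Tbx20 KD (11.001, 4.76 and 9.38 with exon length), and 7 of the 10 genes kept their place in the order of levels. The cause of these shifts was not tested. With 3 libraries a group and a within-group SD of 0.99 for Gucy1a1, differences in that gene are the least certain. The sign of its difference from control in Gata4 KD turned without control b (0.24). In that comparison the sign also turned in some alternative run for Npr1, Npr2 and Prkg1. In Tbx20 KD against control it did so for Gucy1a2, Prkg1, Prkg2 and Pde5a, and between the knockdowns for Npr1 and Npr3. Pde1a kept its sign but ranged from -0.70 to -0.10 in Gata4 KD and from 0.10 to 0.53 in Tbx20 KD, both against control.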
